A study of Mus musculus with 2 samples.

Results

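The serpin family was examined in expandable hepatoblasts, mouse liver progenitor cells that divide in culture, at passage 5 and at passage 20. Members were taken as every array probe for a gene whose array name begins with Serpin, which gave 78 of 41174 gene probes. These probes stand for 59 genes, of 20054 named genes on the array. The cells were of strain C57BL/6, with liver as the labelled tissue. The labels give 1 routine medium for both groups, with EGF, the GSK3 inhibitor CHIR99021, the TGF-beta receptor inhibitor E-616452, LPA and S1P, on a surface coated with Matrigel or laminin. Total RNA of each passage was labelled with Cy3 and hybridised to 1 array. The labels place the passages in separate experiments, so passage and experiment cannot be told apart. With 1 array per passage no difference below has a replicate check, and none has a p-value or a standard error between cultures.

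Serpins are proteins of a shared fold, most of which inactivate a protease by offering it a bait loop and then trapping it in an irreversible complex. A clade letter follows the family name in each gene symbol. Clade A holds secreted proteins made largely by the liver, such as alpha-1-antitrypsin. Clade B serpins lack a classical signal peptide and act mainly inside cells. Other clades hold antithrombin, C1 inhibitor and the collagen chaperone HSP47, which inhibits no protease. In mice the antitrypsin genes and several clade B genes have multiplied into neighbouring copies, so a probe may read more than 1 copy.

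The accessions listed for 7 of the 78 probes belong to several serpin genes, among them those of Serpina1d and Serpinb9g. The following 4 probe sequences are shown because they belong to members on which the results turn, and each is 60 bases long. They are printed in lower case, with no part marked.
Serpinb1b: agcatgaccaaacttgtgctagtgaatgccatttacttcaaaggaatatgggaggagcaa
Serpinb1a: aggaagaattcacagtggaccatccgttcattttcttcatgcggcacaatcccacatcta
Serpinb1c: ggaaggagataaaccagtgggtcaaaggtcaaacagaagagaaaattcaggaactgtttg
Serpina1b: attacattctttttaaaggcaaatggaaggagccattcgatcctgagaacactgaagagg
No probes of different serpin genes shared a run of 16 or more bases. Whether a probe also binds the transcript of another copy was not tested. In build mm9, given by the file headers, the Serpinb1a probe lay at chr13:32934722-32934781 on the minus strand and the Serpinb1b probe at chr13:33183225-33183284 on the plus strand. The Serpinb1c probe was placed at chr13:32976212-32978061 and the Serpina1b probe at chr12:104968689-104970188. These last 2 spans are longer than the probes themselves. The files give no exon or UTR for a probe.

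Most of the family was not detected. Of the 59 serpin genes, 17 (28.8%) had a spot called well above background at 1 passage or both, which is the scanner software's own call and is written as detected below. Among all named genes the share was 58.8%. Of the 17, 13 were detected at both passages, 4 at passage 5 alone and 0 at passage 20 alone. The 60 remaining serpin probes had signals of 21.7 to 122 at passage 5 and 19.0 to 89.8 at passage 20. The lowest signal of any probe called well above background was 109 at passage 5 and 94.6 at passage 20. For 30 of those 60 probes the software had replaced the measured signal by a noise value on both arrays.

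A difference is the log2 signal at passage 20 minus that at passage 5, after each array's 75th percentile had been subtracted. A gene was counted as different at 2-fold. Of the 17 detected serpin genes, 2 were 2-fold higher at passage 20, against a background of 3.26% of all detected genes, and 6 were 2-fold lower, against a background of 5.74%. Those 8 of 17 (47.1%) compare with 9.00% of all detected genes in either direction. Serpinc1, which encodes antithrombin, was among the higher genes. The lower genes were Serpina1d (an antitrypsin), Serpinh1 (HSP47) and 4 clade B genes, Serpinb1a, Serpinb1c, Serpinb6d and Serpinb9g. Of the 17 differences 13 were below 0 and 4 above it, and their median was -0.36 log2. Among all 11798 detected genes 5005 were below 0 and 6768 above it, with a median of 0.07. The 4 serpins detected at passage 5 alone could not take a value above 0, since their differences are bounds. The median of the 17 was itself such a bound, that of Serpina12. Over genes detected at both passages the median was -0.29 log2 for the 13 serpins and 0.08 for all genes. With the arrays centred on their medians the counts were 1 higher and 8 lower among serpins and 193 higher and 1127 lower among all genes, in place of 385 and 677.

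The spread of repeat spots is small beside the differences past 2-fold, but not beside several of the smaller ones. It leaves out everything between cultures. Over 114 probes spotted repeatedly, the median SD of a difference was 0.08 log2, and the 95th percentile was 0.23. Different probes for the same gene had a median SD of 0.19 log2 over 4300 genes. Errors printed beside signals below are the scanner software's estimate for 1 spot. Combined over both arrays, that error was 0.58 log2 for Serpinb9g, 0.31 for Serpinb6d and 0.28 for Serpinc1. The differences of Serpinb6d and Serpinc1 lay within it of the 2-fold line.

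**Figure D1:**
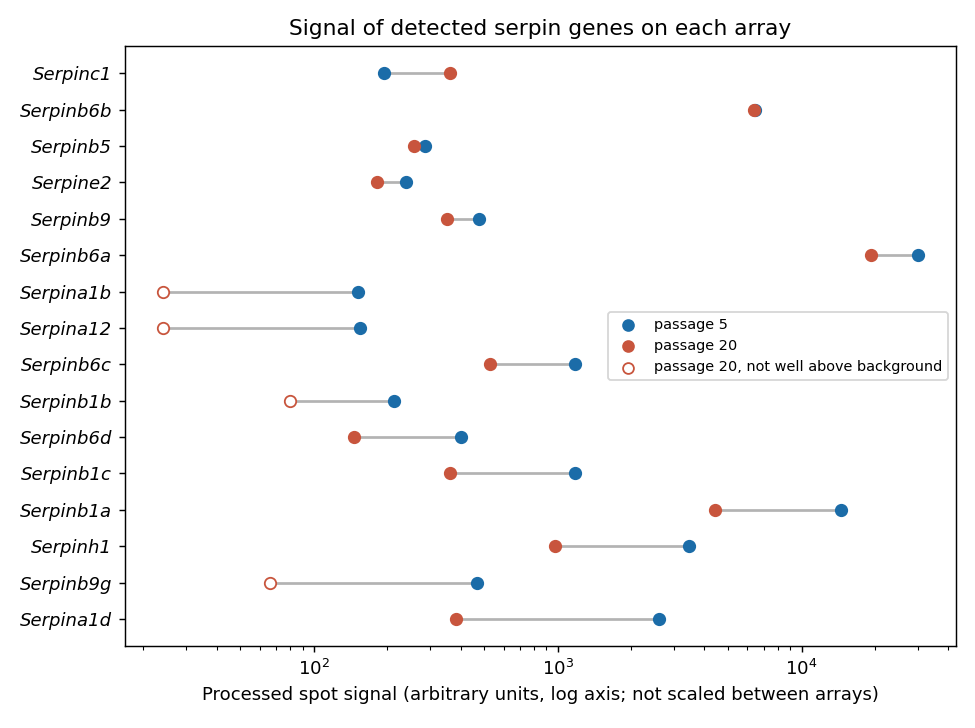
Processed signal (log axis, arbitrary units) of 16 detected serpin genes at passage 5 (blue) and passage 20 (red), 1 spot per array, with open circles where the spot was not well above background. The 4 genes with open circles, Serpina12, Serpina1b, Serpinb1b and Serpinb9g, were detected at passage 5 only, and Serpinc1 had a brighter spot at passage 20 than at passage 5.

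Among the secreted clade A serpins 3 of 22 genes were detected, all of them lower at passage 20 in value. Past 2-fold lower was 1 of the 3, against 5.74% of all detected genes. Only Serpina1d was detected at both passages. For Serpina1b and Serpina12, detected at passage 5 alone, a bound could not lie above 0. Serpina1d, a mouse form of alpha-1-antitrypsin, the plasma inhibitor of neutrophil elastase, had a signal of 2612 ± 262 at passage 5 and 382 ± 44.4 at passage 20. This was 5.37-fold lower at passage 20 (-2.43 log2), the largest difference among the serpins detected at both passages. The probe, at chr12:105001833-105001892 in mm9, lists accessions of Serpina1c, Serpina1d and Serpina1e, so its signal cannot be given to 1 of the 3 copies. Another probe, filed under Serpina1c, lists accessions of Serpina1b, Serpina1c, Serpina1d and Serpina1e and was not well above background at either passage, with signals of 68.1 and 23.8. Serpina1b, a neighbouring antitrypsin copy, had a signal of 151 ± 31.5 at passage 5 and was not well above background at passage 20. Its difference is a bound, at least 1.26-fold lower. Serpina12 encodes vaspin, a secreted inhibitor of a kallikrein that is known from fat tissue. Its signal was 155 ± 31.4 at passage 5 and not well above background at passage 20, which gives at least 1.29-fold lower. Both bounds are close to no difference because the passage 5 signals lay little above the lowest detected signals.

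The stretch before the start of 2 antitrypsin genes is shown because the probes filed under Serpina1b and Serpina1d were both detected at passage 5. Their upstream sequences are also nearly the same. The Serpina1d signal cannot be given to that copy alone, and a link between these stretches and the signals was not tested. Each line holds the 250 bases before the start from RefSeq, build GRCm38.p6, minus strand, at chr12:103738190-103738439 for Serpina1b and chr12:103773634-103773883 for Serpina1d. Capitals mark matches to GTTAAT (a motif found before many liver genes), CCAAT (the CCAAT box) and TGANTCA (an AP-1 site).
Serpina1b: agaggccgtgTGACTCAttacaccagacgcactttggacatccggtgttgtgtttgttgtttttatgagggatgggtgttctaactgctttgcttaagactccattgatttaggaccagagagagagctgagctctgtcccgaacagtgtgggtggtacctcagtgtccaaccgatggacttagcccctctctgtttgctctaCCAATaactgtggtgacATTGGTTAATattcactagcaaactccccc
Serpina1d: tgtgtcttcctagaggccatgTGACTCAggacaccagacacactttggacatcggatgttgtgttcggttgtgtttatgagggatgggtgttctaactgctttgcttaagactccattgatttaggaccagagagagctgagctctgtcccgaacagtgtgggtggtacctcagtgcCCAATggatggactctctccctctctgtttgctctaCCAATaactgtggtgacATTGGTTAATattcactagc
The 2 stretches were identical at 223 of 238 aligned bases (93.7%). In both, the GTTAAT match shares a base with a CCAAT match read on the other strand. Searched on both strands of the same 250 bases, GTTAAT was in 6.43% of 32851 RefSeq promoters and in 12 of 63 serpin promoters. TGANTCA was in 6.75% of all promoters and in 12 of the 63, and CCAAT in 33.8% and in 19 of the 63. The search also covered 3 motifs that these stretches did not hold: TATAAA (the TATA box), GGGCGG (the GC box) and GGAATG (a TEAD site), which 12.4%, 32.7% and 12.6% of all promoters held. A match says that the letters are present and nothing about binding.

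For the other 19 clade A genes the probe filed under the gene's name was not well above background at either passage, though the Serpina1d probe, which was, also lists Serpina1c. They were Serpina1c, Serpina1f, Serpina3a, Serpina3b, Serpina3c, Serpina3f, Serpina3g, Serpina3i, Serpina3j, Serpina3k, Serpina3m, Serpina3n, Serpina4-ps1, Serpina5, Serpina6, Serpina7, Serpina9, Serpina10 and Serpina11. This set holds the antichymotrypsin-like Serpina3 copies and the hormone carriers Serpina6, which binds corticosteroids, and Serpina7, which binds thyroxine. The 21 clade A genes on chromosome 12 lay within chr12:104853280-105651977 in mm9, and all 3 detected members were among them.

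The clade B serpins made up most of what was detected, with 10 of 26 genes above background. Of these 0 were 2-fold higher and 4 were 2-fold lower, against a background of 3.26% and 5.74% of all detected genes. Their median was -0.82 log2. The detected genes lay mostly in 1 of the clade's 2 stretches of the mouse genome. On chromosome 13, within chr13:32934722-34078809 in mm9, 9 of 14 genes were detected. A difference below 0 was found for 8 of these, against 5005 of all 11798 detected genes, and 4 of the 8 were past 2-fold. The 8 include Serpinb1b and Serpinb9g, detected at passage 5 alone, whose bounds could not lie above 0. Serpinb9g is also among the 4. Over the 7 genes detected at both passages the median was -0.81 log2. On chromosome 1, within chr1:108778585-109504790, 1 of 12 was detected. That gene was Serpinb5, or maspin, a non-inhibitory serpin known from epithelial cells. It had a signal of 286 ± 37.7 at passage 5 and 258 ± 33.5 at passage 20, a difference of 0.20 log2 that was below 0 after median centring or spike-in scaling.

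The Serpinb1 copies, whose human counterpart inhibits neutrophil elastase, were brighter at passage 5 in all 3 cases. Serpinb1a had a signal of 14527 ± 1453 at passage 5 and 4421 ± 443 at passage 20, and was 2.58-fold lower (-1.37 log2). For Serpinb1c the signals were 1183 ± 120 and 361 ± 40.8, 2.57-fold lower (-1.36 log2). The differences of these copies were nearly equal although their printed probes differ. A second Serpinb1c probe was not well above background at either passage. Serpinb1b gave 214 ± 35.0 at passage 5 and was not well above background at passage 20, a bound of at least 1.78-fold lower (-0.83 log2, or -0.22 with normexp). Its second probe was not well above background at either passage, with signals of 26.1 and 22.7.

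The Serpinb6 copies, related to a human inhibitor of cathepsin G, spread over both directions. Serpinb6a had a signal of 29958 ± 2996 at passage 5 and 19250 ± 1925 at passage 20, a difference of -0.29 log2. The other 2 probes for that gene, which list no RefSeq accession, were not well above background at either passage. Serpinb6b had 6441 ± 645 and 6392 ± 640, a difference of 0.34 log2 that shrank to 0.03 with median centring. Nearly equal signals gave a difference above 0 here because the passage 20 array was dimmer, with a 75th percentile of 853 against 1085. For Serpinb6c the signals were 1180 ± 120 and 529 ± 57.0, 1.75-fold lower (-0.81 log2). Serpinb6d had 400 ± 47.4 and 146 ± 26.7, and was 2.16-fold lower (-1.11 log2). With the normexp background correction that last difference was -0.52, no longer past 2-fold. Within this subfamily, then, the differences ran from -1.11 to 0.34.

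Serpinb9 is the intracellular inhibitor of granzyme B, the death protease of cytotoxic lymphocytes. Its probe with the higher mean value had a signal of 475 ± 53.7 at passage 5 and 353 ± 41.5 at passage 20, a difference of -0.08 log2. The second Serpinb9 probe had signals of 672 and 202, a difference of -1.38 log2. The probes for that gene therefore disagree by more than 2-fold, and no single value can be given for it. Serpinb9g, a mouse copy of the same subfamily, had a signal of 467 ± 54.2 at passage 5 and was not well above background at passage 20, which makes it at least 3.88-fold lower (-1.96 log2, or -1.10 with normexp). Its probe, at chr13:33587450-33587509 in mm9, lists accessions of Serpinb9f and Serpinb9g. Another probe with accessions of both, filed under Serpinb9f, was not well above background at either passage, with signals of 77.1 and 20.6.

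Of clade B, Serpinb2, Serpinb3a, Serpinb3b, Serpinb3c, Serpinb3d, Serpinb7, Serpinb8, Serpinb10, Serpinb11, Serpinb12 and Serpinb13 on chromosome 1 were not well above background at either passage. On chromosome 13 the same held for Serpinb9b, Serpinb9c, Serpinb9d and Serpinb9e. It also held for the probe filed under Serpinb9f, while the detected Serpinb9g probe lists an accession of that gene too. Because several clade B serpins are abundant in leukocytes, leukocyte markers were read beside them. Of 10 such markers 4 were above background, Cd68 and Cd3e at both passages and Csf1r and Lyz2 at passage 5 only. Ptprc and Itgam were not among them. The summed signal of the list was 1075 at passage 5 and 931 at passage 20. Summed signals, here and below, are not scaled between the arrays and include markers not above background.

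**Figure D2:**
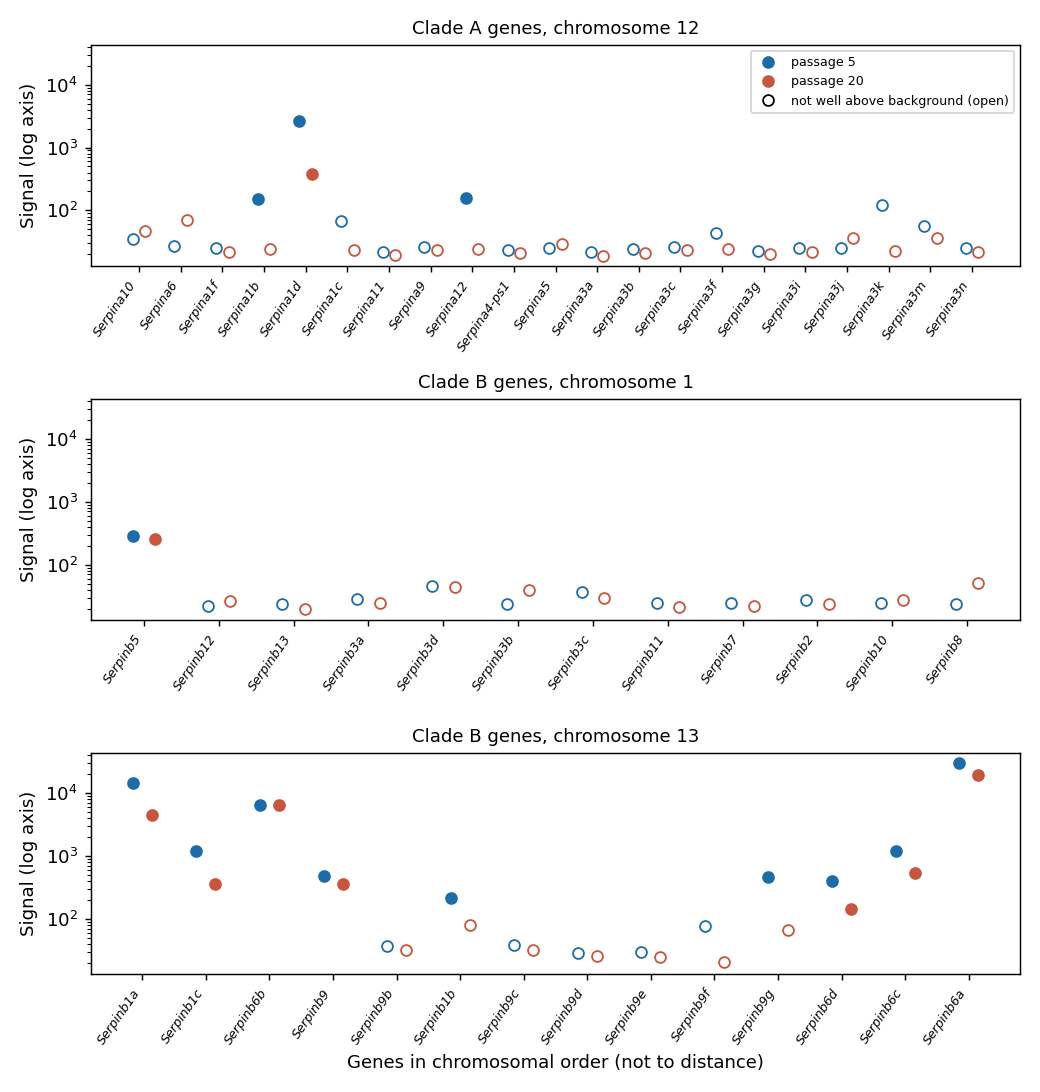
Processed signal (log axis) at passage 5 (blue) and passage 20 (red) of the clade A genes on chromosome 12 and the clade B genes on chromosomes 1 and 13, in chromosomal order, with open circles for spots not well above background. Filled circles are seen for 3 of 21, 1 of 12 and 9 of 14 genes.

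Serpine2, or protease nexin 1, an inhibitor of thrombin and urokinase held at cell surfaces, had signals of 239 ± 35.2 and 181 ± 29.2. Its difference of -0.05 log2 lies within the spread of repeat spots. Serpine3 was not well above background at either passage.

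Serpinc1 encodes antithrombin, the plasma inhibitor of thrombin and factor X that heparin activates. Its signal was 194 ± 30.9 at passage 5 and 361 ± 42.0 at passage 20, 2.37-fold higher (1.24 log2). Both signals were low, a second Serpinc1 probe was not well above background at either passage, and with median centring the difference was 0.93, short of 2-fold. Heparin cofactor II (Serpind1), the other heparin-activated thrombin inhibitor of the family, was not well above background.

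Serpinh1 encodes HSP47, a chaperone of the endoplasmic reticulum that binds folded procollagen. Its signal was 3448 ± 346 at passage 5 and 974 ± 100 at passage 20, 2.78-fold lower (-1.48 log2). The gene is known for high levels in collagen-making cells. Of 10 stellate cell and fibroblast markers 2 were above background, Col1a1, Col1a2, Col3a1 and Pdgfrb not among them, and the list's summed signal was 31443 at passage 5 and 21767 at passage 20. Most of that sum was Acta2, with a difference of -0.10 log2 by the probe used and a difference or bound of -3.11 log2 by another. Dcn, the other detected marker, had signals of 1918 and 30.8 and was at least 15.9-fold lower. The part of such cells in the Serpinh1 difference was not tested. Serpinf1 and Serpinf2, which encode PEDF and alpha-2-antiplasmin, were not well above background, nor were Serping1 (C1 inhibitor), Serpini1 (neuroserpin) and Serpini2.

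**Figure D3:**
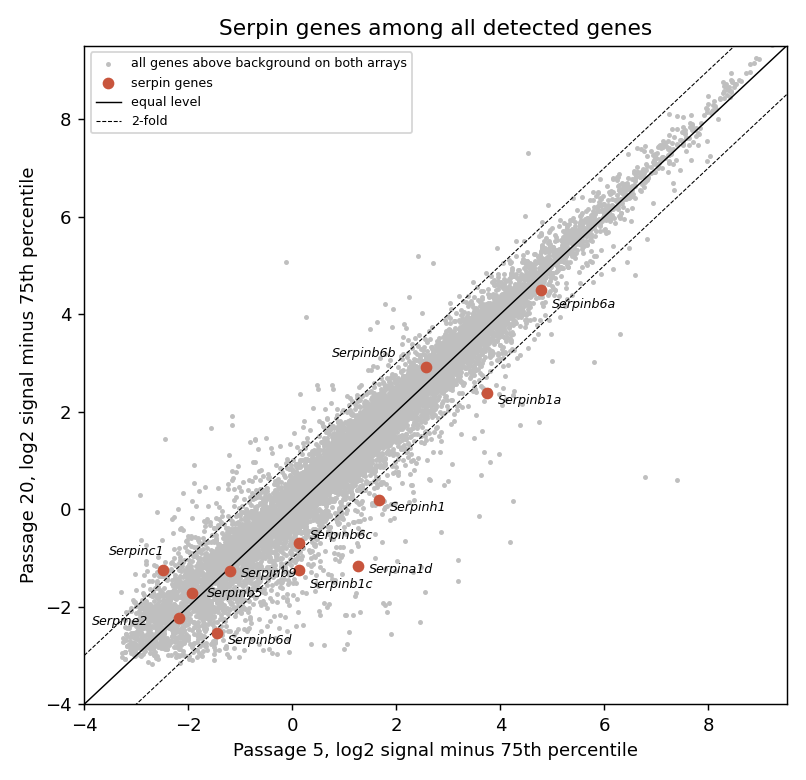
Log2 signal minus the array's 75th percentile at passage 5 (horizontal) and passage 20 (vertical) for all 10749 named genes above background on both arrays (grey) and 12 serpin genes among them (red), with lines at equal level and at 2-fold. Serpinc1 lies above the upper 2-fold line and Serpina1d, Serpinh1, Serpinb1a, Serpinb1c and Serpinb6d below the lower one.

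Restricted to genes above background on both arrays, where no bound enters, 2 of 13 serpins were 2-fold higher and 5 were 2-fold lower, against a background of 2.47% and 3.98%, or 6.46% in either direction. Serpina1d, Serpinb1a and Serpinh1 stayed past 2-fold in the same direction under all 11 other ways of processing that were tried. Serpinc1 did so under 10 of 11, failing with median centring. For Serpinb1c, failing with normexp at -0.99 log2, and for Serpinb6d it was also 10 of 11. For each of these genes some of the 11 could not change the value. The other filters and the probe means left it as reported, since the gene had 1 detected probe, seen on both arrays. Keeping flagged spots hardly moved it. These counts are therefore not counts of independent checks. Serpinb9g passed under all 10 that could be applied to it. Among the 9 genes within 2-fold, Serpinb5, Serpinb9 and Serpine2 took a sign opposite to the reported one under at least 1 setting, and Serpina12 reached 0 with normexp. In the other direction, Serpinb1b was past 2-fold lower under 6 of its 10 settings, from -1.04 log2 with the authors' values to -1.14 with median centring, and Serpinb6c under 2 of 11.

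**Figure D4:**
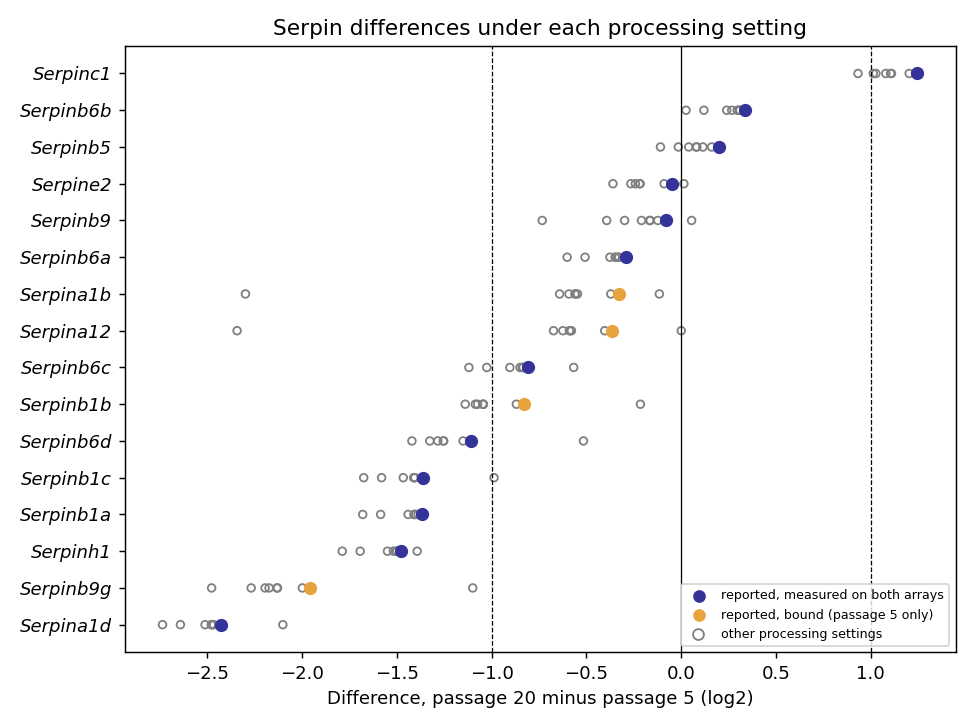
Difference of passage 20 minus passage 5 (log2) for 16 detected serpin genes as reported (filled; orange for bounds of genes detected at passage 5 only) and under the other processing settings (open grey), with dashed lines at 2-fold. The open circles of Serpina1d run from -2.74 to -2.10.

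Proteases, other inhibitors, serpin partners and wider sets such as liver transcription factors were read from 9 gene lists. Each is given by its count beside the 9.00% of all detected genes past 2-fold. In the plasminogen system, a target of several serpins, 8 of 13 genes were detected, with 1 higher, 1 lower and a median of 0.21 log2. Mmp14, a membrane metalloprotease, was 3.16-fold higher, from a signal of 460 to 1143. Plau, the urokinase-type activator of plasminogen, was 2.35-fold lower by 1 probe and had a difference of 0.83 log2 by another, so its direction is unsettled. Of the list of coagulation and contact proteases with their cofactors and regulators, the system in which Serpinc1 acts, 7 of 19 genes were detected, 3 higher and 2 lower, with a median of 0.04. Proc (protein C) was 3.29-fold lower and its cofactor Pros1 2.31-fold lower, while the protein C receptor Procr was 2.87-fold higher and Tfpi, the tissue factor pathway inhibitor, at least 2.15-fold higher.

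Collagen folding genes, the setting of Serpinh1, were detected in 17 of 21 cases, with 0 higher, 2 lower and a median of -0.10 log2. The lower ones were P3h4, a partner of collagen-modifying enzymes, at 3.96-fold, and Sparc, a collagen-binding matrix protein, at 2.61-fold. Of granule and cysteine proteases, a list that includes targets of clade B serpins, 9 of 18 were detected, 2 higher and 0 lower, with a median of -0.12. The inflammatory caspase Casp4 was 4.47-fold higher and the lysosomal protease Lgmn 2.01-fold higher. Of membrane-bound serine proteases 9 of 18 were detected, 0 higher and 2 lower, with a median of -0.07. Those were Pcsk5, a proprotein convertase, at least 3.87-fold lower by 1 probe and with a difference or bound of -1.09 log2 by another, and Prss23, 2.27-fold lower.

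Protease inhibitors outside the serpin family were detected in 15 of 30 cases, with 1 higher and 5 lower and a median of -0.15 log2. Wfdc2, a small secreted inhibitor-like protein, was 69.5-fold lower, from a signal of 118962 to 1345, and Ambp, the bikunin precursor, was 10.6-fold lower. Itih5 was at least 5.42-fold lower, and Spint1, an inhibitor of membrane serine proteases, was 3.48-fold lower. The receptors that clear serpin complexes were detected in 10 of 12 cases, with 0 higher and 1 lower, Cd36, and a median of 0.11. Acute phase genes, a class to which antitrypsin belongs, were detected in 12 of 26 cases, 2 higher and 2 lower, with a median of 0.09. Fgb, a fibrinogen chain, was 3.90-fold higher and Lbp, which binds bacterial lipopolysaccharide, 2.29-fold lower. Liver transcription factors were detected in 13 of 21 cases, with 1 higher (Prox1, 2.02-fold) and 0 lower and a median of -0.13. None of the 9 lists had a median as far below 0 as the 17 detected serpins, a comparison of descriptions without a test.

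**Figure D5:**
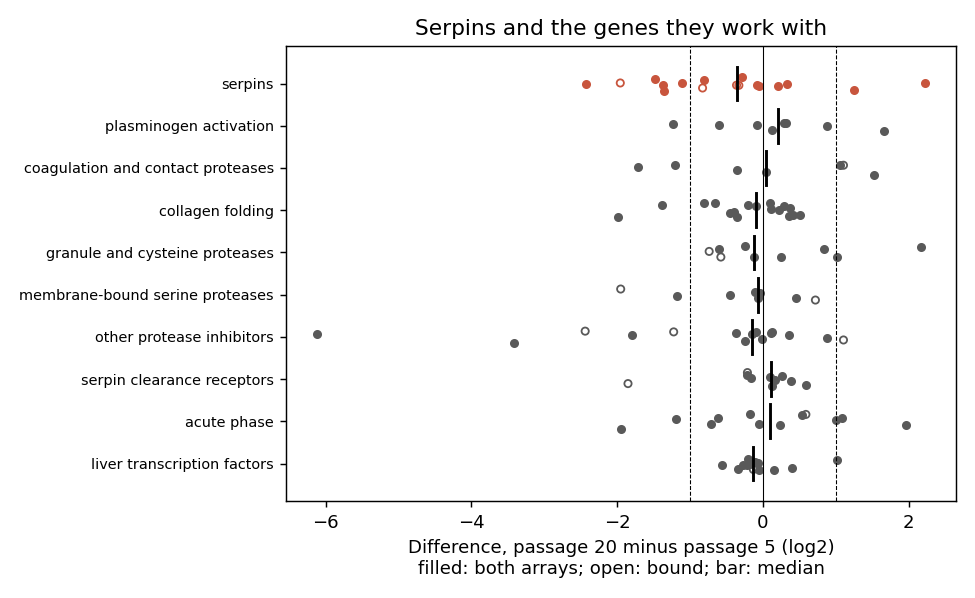
Difference of passage 20 minus passage 5 (log2) of each detected gene in the serpin family (red) and in the 9 gene lists (grey), with open circles for bounds and a black bar at each median. The serpin median is -0.36 and the list medians run from -0.15 to 0.21.

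The cell type was checked on marker genes. For these lists and the marker lists above, the shares to compare are those of all genes. Of all named genes 58.8% were detected, and of those 3.26% were 2-fold higher and 5.74% 2-fold lower. Of 13 hepatoblast markers 12 were above background, among them Afp, Hnf4a, Foxa2, Krt8, Krt18, Krt19, Epcam, Gpc3, Prox1, Sox9 and Cdh1, while Dlk1 was not. Epcam was 2.24-fold lower at passage 20 and Gpc3 at least 9.49-fold lower, while Cdh1 was 2.89-fold and Prox1 2.02-fold higher. None of 10 markers of mature hepatocytes was above background, Alb and Ttr included, although Serpina1d, Serpinc1 and Serpina1b, whose products are known from plasma, had a signal. Of 9 biliary markers 8 were above background, 2 of them higher and 1 lower, with summed signals of 269966 and 271408. Within that sum Spp1 was 6.83-fold higher and Cldn4 2.90-fold lower, and Krt19 had signals of 220953 and 121549. Pkhd1 was at least 3.62-fold higher by the probe used, while its other measured probes gave differences or bounds down to 0.33 log2. Of 9 pancreas and gut markers 5 were above background and 4 of them 2-fold lower, with a summed signal of 290347 at passage 5 and 46397 at passage 20. Their part in the serpin differences was not tested. Mesothelial markers were above background in 4 of 6 cases, 2 of them lower, with summed signals of 172971 and 188733 that were nearly all Msln. Upk3b was at least 4.34-fold lower and Wt1 at least 2.02-fold lower. Endothelial markers were above background in 1 of 8 cases, with summed signals of 2306 and 724, and megakaryocyte and erythroid ones in 0 of 6. In RNA from a whole culture, fewer cells that make a transcript and less transcript per cell cannot be told apart.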

How the data were processed

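Per the file headers, Agilent Feature Extraction (10.7.3.1) produced the spot intensity used here, on a linear scale, background-subtracted and detrended, with a surrogate value for spots that did not exceed noise. The mean and background intensity columns, also deposited, entered 1 alternative. Further deposited columns hold flags for saturated spots, outliers and detection. The authors' table holds log2 values. The sorted values of its columns differed by at most 0.000609, with a median of 6.31 in each, and its normalization tool is not named here.

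Log2 signals were reduced by the array's own 75th percentile of gene probes, after 16 probes with outlier flags had been left out. A gene took its probe with the highest mean value. Names came from RefSeq (GRCm38.p6), by accession for 69 serpin probes and by symbol for 9. Where a gene was detected on 1 array, the other took the higher of its own value and that array's lowest detected value (-3.32 log2 at passage 5, -3.17 at passage 20), written as at least N-fold. Bounds enter counts and medians. The number of arrays, 1 per passage, limits the precision, and no test was made. R 4.3.3, limma 3.58.1 and Python 3.11.15 were used, and the steps were checked on simulated data. Detected serpin genes were named with values and the others by name. Some items, 1 detected serpin gene among them, are left out of the text, although counts and medians include them. From each partner list, genes were named out of the 4 with the largest differences, and of the markers those of hepatoblasts, with a few others that define a cell type. The members, lists and settings were chosen with earlier results of these data known. The alternatives were normexp (offset 50), quantile, median, loess and spike-in scaling, a percentile over detected probes, other filters, probe means, the authors' values, flagged spots kept and other thresholds.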

Additional observations from a re-analysis of the deposited data

How the results depend on the processing

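No paired analysis was possible because each passage has 1 array. The median of all detected genes was 0.07 log2 as reported, -0.24 with median centring and -0.15 with scaling to 7 spike-in probes, so the sign of a small difference depends on the scaling. The number of serpins 2-fold higher, 2 as reported, was 1 with median centring or a 4-fold threshold and 7 with no filter on dim probes. The number lower, 6 as reported, was 1 at 4-fold and 12 with no filter, when all 59 genes count as measured. The median of the serpins was -0.62 with loess, -0.67 with median centring, -0.58 with spike-in scaling, -0.59 with quantile normalization and with the authors' values, -0.73 with probe means and 0.15 with no filter, which adds 42 genes read at noise. For clade A, reported at -0.36, the median was -0.62 with loess, -0.67 with median centring, -0.58 with spike-ins, -0.59 with quantile normalization and with the authors' values, -0.12 with normexp, 0.16 with no filter and -2.43 over genes detected on both arrays, which leaves 1 gene. For clade B, reported at -0.82, it was -1.13 with median centring, -1.04 with spike-ins, -0.43 with normexp, -0.55 over genes detected on both arrays and 0.13 with no filter. Signals near background limit Serpina1b, Serpina12, Serpinb1b and Serpinc1.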
